A study of Mus musculus with 2 samples.

Results

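Immunoglobulin and plasma cell genes were followed in the 2 single-cell libraries of a study of SRSF10, a splicing factor, in mouse hepatocellular carcinoma (HCC, cancer of the liver epithelium). The members are 10 of 32285 measured features, chosen by symbol and not by level: the heavy chain constant genes Ighm, Ighd, Igha, Ighg1, Ighg2b, Ighg2c and Ighg3, the kappa light chain constant gene Igkc, and the antibody assembly genes Jchain and Mzb1. One library came from tumours labelled shSrsf10 (genotype shSrsf10), in which a short hairpin RNA is directed at Srsf10, and 1 from tumours labelled shCtrl (genotype WT). Both are labelled as tumour tissue and share the digestion and droplet steps. Age, strain, the vector and the cells in which the hairpin acts, the number of animals pooled and the gate of the cell sort are not given in the sources used here. With 1 library in each group there is no replicate, so no test was made. Levels are given in CPM, UMIs of a gene per 1000000 UMIs of its class. Intervals are 95% and cover counting error only.

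A barcode is the tag of 1 droplet, and a UMI is 1 counted RNA molecule. After filtering, 7486 of 7553 shSrsf10 barcodes and 9542 of 9920 shCtrl barcodes were kept, with 136332461 UMIs in shSrsf10 and 142783013 in shCtrl. The median depth was 11558.5 UMIs in shSrsf10 and 12578 in shCtrl. The libraries shared 67 barcode sequences, of which 1 was a plasma barcode of shSrsf10. Barcodes were sorted into classes by a few genes. Plasma barcodes had at least 5 UMIs of Jchain and Mzb1 together. B barcodes had fewer than 5 of these and at least 2 of Cd79a, Cd79b and Ms4a1 together. T barcodes had at least 2 of Cd3d, Cd3e and Cd3g, and tumour barcodes at least 5 of the keratins Krt8 and Krt18 with none of the leukocyte gene Ptprc.

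An antibody is built from heavy and light chains. A B cell first joins its variable segment to the Ighm and Ighd constant genes, and class switching later replaces these with an IgG or IgA constant gene. A plasma cell is the secreting end stage, which makes 1 heavy chain class in very large amounts and depends on an expanded endoplasmic reticulum. Jchain encodes the joining chain that links IgA into dimers and IgM into pentamers, and Mzb1 encodes a chaperone of the endoplasmic reticulum that helps antibody assembly.

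The 7 heavy chain members lie on the minus strand of chromosome 12 in GRCm38, the assembly also called mm10, between Igha at chr12:113254830-113260236 and Ighm at chr12:113418558-113422730. Jchain lies at chr5:88519809-88527891 and Igkc at chr6:70726435-70726966. The ends of the secreted forms are shown because the classes differ there and because in IgA and IgM they hold the site that takes up the joining chain. Where the counted reads lie in these genes was not examined. Each line gives the last 60 coding bases with the stop codon, read from GENCODE transcripts. In the first pair the capitals mark the codon of the cysteine next to the end of the tailpiece, through which IgA and IgM join each other and the joining chain.
Igha (chr12:113258768-113258827, minus strand): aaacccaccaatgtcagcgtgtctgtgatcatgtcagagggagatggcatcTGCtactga
Ighm (chr12:113420867-113420926, minus strand): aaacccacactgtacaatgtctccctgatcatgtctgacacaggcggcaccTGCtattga
In the 4 IgG genes, which have no such tailpiece, the capitals mark the 26 positions at which the 4 are not all alike.
Ighg1 (chr12:113328976-113329035, minus strand): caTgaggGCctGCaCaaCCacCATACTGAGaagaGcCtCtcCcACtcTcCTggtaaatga
Ighg2b (chr12:113306389-113306448, minus strand): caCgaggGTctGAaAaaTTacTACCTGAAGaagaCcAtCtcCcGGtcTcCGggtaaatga
Ighg2c (chr12:113287389-113287448, minus strand): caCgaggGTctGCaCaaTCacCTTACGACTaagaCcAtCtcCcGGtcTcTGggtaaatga
Ighg3 (chr12:113359665-113359724, minus strand): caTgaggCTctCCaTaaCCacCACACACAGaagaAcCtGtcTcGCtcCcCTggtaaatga
Igha and Ighm shared 41 of these 60 bases, and Ighg2b and Ighg2c 49. Over the whole secreted coding sequences the longest run shared by Ighg2b and Ighg2c was 78 bases, and no pair among these 6 genes shared a window of 90 bases. Reads that lie within such a run do not tell the genes apart, and what part they have in the counts was not tested. The 2 shSrsf10 plasma barcodes with most Ighg2b, 3967 and 3464 UMIs, had 0 of Ighg2c. The 2 with most Ighg2c, 2679 and 2532 UMIs, had 0 of Ighg2b. Another Ighg2b barcode had 669 UMIs with 5 of Ighg2c, and 1 with few UMIs had 13 of Ighg2c and 10 of Ighg2b.

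Plasma barcodes were found in both libraries and made up a larger share of shSrsf10. They numbered 46 in shSrsf10, or 0.614% of kept barcodes (0.450 to 0.819%), and 9 in shCtrl, or 0.0943% (0.0431 to 0.179%). The share was 6.51-fold higher in shSrsf10 (3.15 to 15.1). T barcodes moved by nearly the same factor, with 2107 in shSrsf10 (28.1%) and 385 in shCtrl (4.03%), a 6.98-fold difference (6.25 to 7.80). Of plasma and T barcodes together, plasma barcodes were 2.14% in shSrsf10 (1.57 to 2.84%) and 2.28% in shCtrl (1.05 to 4.29%). Of all barcodes with a UMI of Ptprc or in the T, B or plasma class, they were 1.73% in shSrsf10 (1.27 to 2.31%) and 0.998% in shCtrl (0.457 to 1.89%), and both pairs of intervals overlap. Tumour barcodes made up 52.8% of shSrsf10 and 72.8% of shCtrl. The unstated sort gate can set all of these shares, and its part in them was not tested.

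The threshold that defines plasma barcodes fell in a gap. No barcode in either library had 4 to 7 UMIs of Jchain and Mzb1 together. Just outside, 2 shSrsf10 barcodes and 1 shCtrl barcode had 3 UMIs. Just inside, 1 shSrsf10 barcode had 8, all of Mzb1 and none of Jchain, together with 31 UMIs of the B cell genes and only 14 of Ighg2c. It met the plasma rule through Mzb1 alone, which B cells express too. The remaining 45 in shSrsf10 and all 9 in shCtrl had 10 or more.

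Of plasma cell genes outside the rule, Xbp1 was found in most of these barcodes and Sdc1 in fewer. Xbp1, a transcription factor of secreting cells, was detected in 44 of 46 plasma barcodes in shSrsf10 and 7 of 9 in shCtrl. Sdc1, the surface protein CD138, was detected in 27 of 46 in shSrsf10 and 4 of 9 in shCtrl. Neither is confined to plasma barcodes, as tumour barcodes of shSrsf10 outside the plasma and B rules had 9720 UMIs of Xbp1 and 2888 of Sdc1. In shSrsf10 4 plasma barcodes also met the tumour rule and 1 the T rule, and another had keratin UMIs with 1 of Ptprc or more. In shCtrl none met either rule and 2 had 5 or more keratin UMIs. Outside all of these, 40 plasma barcodes in shSrsf10 and 7 in shCtrl were left, a 7.28-fold difference in share (3.23 to 19.3). Of the 5 plasma markers that the rule did not use (Sdc1, Xbp1, Prdm1, Irf4 and Tnfrsf17), 5 had UMIs in these shSrsf10 barcodes and 4 in these shCtrl barcodes, where Irf4 was at 0. They summed to 2757 CPM in shSrsf10 and 1518 in shCtrl. The T marker genes summed to 3 UMIs in shSrsf10 and 1 in shCtrl, and the neutrophil markers to 0 in shSrsf10 and 1 in shCtrl. The 6 tumour epithelial markers summed to 400 CPM in shSrsf10 plasma barcodes and 759 in shCtrl plasma barcodes, and what part they have in the levels below was not tested.

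B barcodes did not follow plasma barcodes. They numbered 58 in shSrsf10, or 0.775% (0.589 to 1.00%), and 90 in shCtrl, or 0.943% (0.759 to 1.16%), and the ratio of 0.821 had an interval of 0.580 to 1.16 that includes 1. Plasma barcodes were 44.2% of plasma and B barcodes together in shSrsf10 (34.5 to 54.3%) and 9.09% in shCtrl (4.24 to 16.6%). B barcodes were shallow, with a median of 1364.5 UMIs in shSrsf10 and 830.5 in shCtrl, against 6861 UMIs in shSrsf10 and 6333 in shCtrl for plasma barcodes. The direction for B barcodes turned with the setting. With at least 4 UMIs of the B cell genes there were 37 B barcodes in each library, a ratio of 1.27 (0.786 to 2.07). With every barcode thinned to 1000 UMIs and shallower ones left out, 27 B barcodes were left in shSrsf10 and 11 in shCtrl, and the ratio turned to 3.15 (1.51 to 7.03). The plasma ratio after the same thinning was 7.21. Removing the barcodes with the highest doublet scores by Scrublet left 44 plasma barcodes in shSrsf10 and 1 in shCtrl. The ratio was then 54.9, with an interval of 9.35 to 2216, so this step removed 8 of the 9 shCtrl plasma barcodes.

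Each plasma barcode used 1 heavy chain class almost alone. A barcode was given the class of its leading heavy chain gene where it had at least 10 heavy chain UMIs and a share of at least 0.5 of them from that gene. The leading gene gave 95% or more of heavy chain UMIs in 44 of 45 classified shSrsf10 barcodes and 8 of 9 shCtrl barcodes. The lowest value in shSrsf10, 54.2%, came from a barcode with 13 UMIs of Ighg2c, 10 of Ighg2b and 1 of Igha that also met the tumour rule. The lowest in shCtrl, 93.6%, came from a barcode with 379 UMIs of Ighg2c and 26 of Igha. Ighd, the class of mature B cells, had no UMI in any plasma barcode of either library.

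IgA was the most frequent class in shSrsf10 and IgG in shCtrl. Of 45 classified shSrsf10 plasma barcodes, 30 were led by Igha, or 66.7% (51.0 to 80.0%), 14 by an IgG gene, or 31.1% (18.2 to 46.6%), and 1 by Ighm. Of 9 shCtrl plasma barcodes, 2 were led by Igha, or 22.2% (2.81 to 60.01%), and 7 by an IgG gene, or 77.8% (40.0 to 97.2%). The intervals overlap, and with 9 shCtrl barcodes the share in that library is loosely known. Removal of the highest Scrublet scores left 1 of these 9, and neither classes nor levels per barcode were computed after it. The 14 IgG barcodes of shSrsf10 comprised 2 of Ighg1, 4 of Ighg2b, 7 of Ighg2c and 1 of Ighg3. The 7 of shCtrl comprised 3 of Ighg2b and 4 of Ighg2c, with none of Ighg1, Ighg3 or Ighm. None of 9 barcodes allows a share of up to 33.6% for each of these. Ighe, the IgE gene and no member, had 0 UMIs in both libraries.

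**Figure D1:**
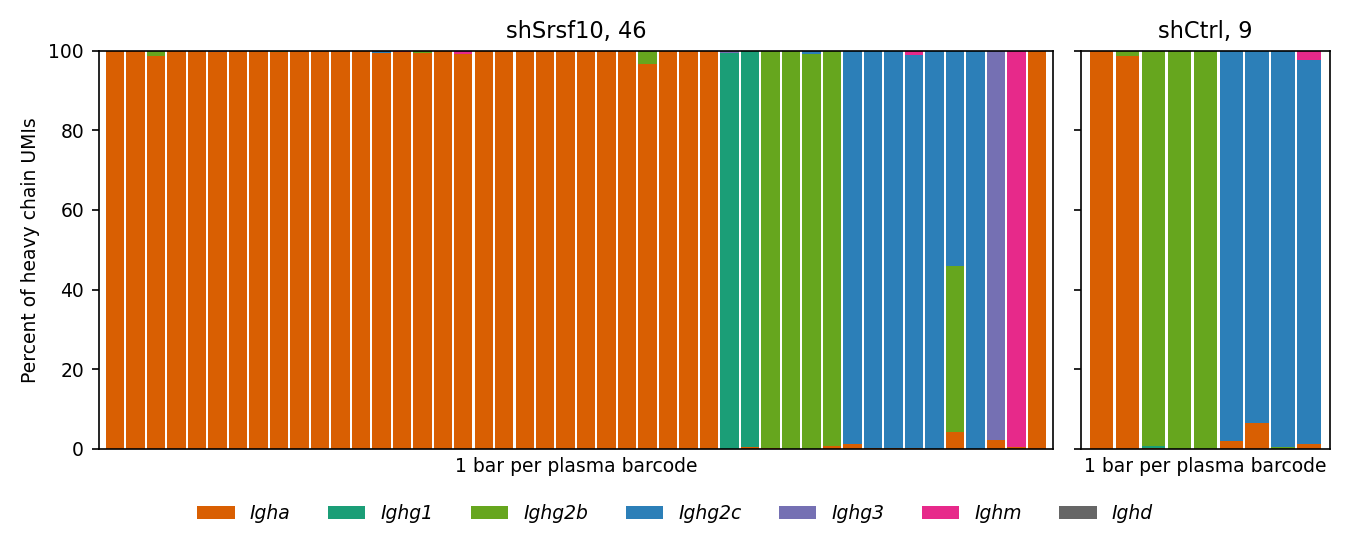
Percent of heavy chain UMIs from each heavy chain gene (vertical axis) in each plasma barcode, with 46 bars for shSrsf10 on the left and 9 for shCtrl on the right, ordered by leading gene. Most bars are 1 colour: 30 of 45 classified shSrsf10 barcodes are led by Igha and 2 of 9 shCtrl barcodes, and the last shSrsf10 bar is the unclassified barcode with 2 heavy chain UMIs.

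One shSrsf10 barcode could not be classified. It had 229 UMIs of Jchain and 107 of Mzb1, the highest Mzb1 count of all plasma barcodes, but only 2 heavy chain UMIs, both of Igha. A second barcode of this kind, led by Igha, had 450 UMIs of Jchain beside 17 of Igha, with 213 UMIs of lambda variable segments. The other IgA barcodes of shSrsf10 had 178 to 5105 heavy chain UMIs. Both barcodes had a plasma pattern with almost no heavy chain in the count table.

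The amount of antibody RNA per plasma barcode was higher in shSrsf10. Heavy chain UMIs per plasma barcode were 2 at the lowest, 2439.5 at the median and 5105 at the highest in shSrsf10, against 83, 405 and 1820 in shCtrl. Immunoglobulin genes of all kinds took a median 36.9% of a plasma barcode's UMIs in shSrsf10 (0.894 to 57.3%) and 12.6% in shCtrl (1.92 to 37.2%). The ranges overlap. Total UMIs had a median of 6861 in shSrsf10 and 6333 in shCtrl over all plasma barcodes. Outside T and keratin barcodes it was 6542.5 in shSrsf10 and 3567 in shCtrl. Since classes differ between the libraries, IgG barcodes were also set side by side on their own. UMIs of the leading heavy chain were 13 at the lowest, 1671 at the median and 3967 at the highest in the 14 IgG barcodes of shSrsf10, against 80, 299 and 1141 in the 7 of shCtrl. The higher median was thus seen within IgG barcodes too, where total UMIs had a median of 7457 in shSrsf10 and 6333 in shCtrl. Outside T and keratin barcodes, IgG barcodes had a median of 7089 total UMIs in shSrsf10 and 3567 in shCtrl. Their immunoglobulin share had a median of 30.9% in shSrsf10 and 12.6% in shCtrl. What part depth has in the UMIs per barcode was not tested. Summed over the 40 shSrsf10 and 7 shCtrl plasma barcodes outside T and keratin barcodes, 5 of 8 measured members were at least 1.5-fold higher in shSrsf10 and 1, Ighg2b, was lower. Over all 1118 genes measured there, 16.9% were higher and 33.8% lower by this fold.

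Jchain followed the same order. Its UMIs per plasma barcode were 0, 338 and 1119 (lowest, median, highest) in shSrsf10, against 14, 29 and 351 in shCtrl. Mzb1 differed less, with 1, 23 and 107 in shSrsf10, against 0, 15 and 33 in shCtrl. These 2 genes chose the plasma barcodes, so their levels there are a description. Among the IgG barcodes alone, Jchain had 0, 261.5 and 454 UMIs in shSrsf10, against 14, 29 and 124 in shCtrl. As a share of UMIs outside immunoglobulin genes, the median in IgG barcodes was 4.26% in shSrsf10 and 0.692% in shCtrl. Jchain was thus abundant in plasma barcodes of IgG class, although IgG does not take up the joining chain.

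Within shSrsf10, IgA and IgG barcodes differed in the balance of the pair. IgA barcodes had a median of 396 Jchain UMIs (12 to 1119) and 14.5 Mzb1 UMIs (1 to 72). IgG barcodes had a median of 261.5 Jchain UMIs (0 to 454) and 40 Mzb1 UMIs (8 to 88). They include the barcode that met the plasma rule through Mzb1 alone, with 0 UMIs of Jchain and 8 of Mzb1. The ratio of Jchain to Mzb1 within a barcode had a median of 21.9 in IgA barcodes and 4.99 in IgG barcodes. In shCtrl the 2 IgA barcodes had 351 and 22 UMIs of Jchain with 33 and 0 of Mzb1. The single IgM barcode, in shSrsf10, had 474 UMIs of Jchain and 5 of Mzb1. Since Jchain and Mzb1 were both used to choose the barcodes, these balances are given with no test.

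**Figure D2:**
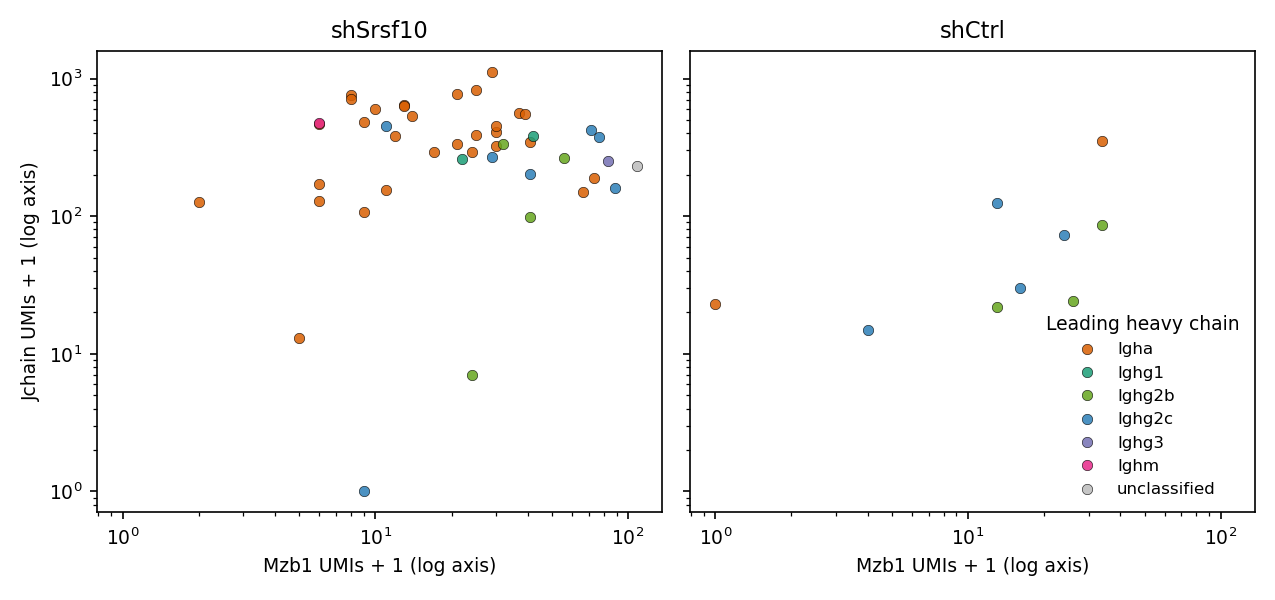
Jchain UMIs plus 1 (vertical, log axis) against Mzb1 UMIs plus 1 (horizontal, log axis) for each plasma barcode, coloured by leading heavy chain gene, with shSrsf10 on the left and shCtrl on the right. In shSrsf10 most IgA barcodes lie towards the upper left of the IgG barcodes, with medians of 396 Jchain and 14.5 Mzb1 UMIs, and most shCtrl barcodes lie lower, with a median of 29 Jchain UMIs.

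Light chains were seen only in part. Igkc, the constant gene of the kappa chain that most mouse antibodies carry, was listed at 0 in every barcode of both libraries, although variable segments of the kappa locus had 469 UMIs in shSrsf10 plasma barcodes and 10 in shCtrl plasma barcodes. A kappa variable segment had a UMI in 42 of 46 shSrsf10 plasma barcodes and 4 of 9 in shCtrl. Lambda variable segments had more, with 2803 UMIs in shSrsf10 plasma barcodes and 108 in shCtrl plasma barcodes. Kappa segments outnumbered lambda segments in 7 of 46 barcodes of shSrsf10 and 0 of 9 of shCtrl. A named kappa segment is thus not read as the light chain of a barcode. The zero of Igkc is no measure of kappa use. Gm30211, a long non-coding RNA gene at chr6:70719074-70740554 on the plus strand, spans Igkc within an intron. It had 164 UMIs in 33 of 46 plasma barcodes of shSrsf10 and 4 UMIs in 1 of 9 in shCtrl. Whether its counts and the zero of Igkc are linked was not tested.

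Lambda chains were counted. The constant genes Iglc1, Iglc2 and Iglc3 together had 3015 UMIs in shSrsf10 plasma barcodes and 1312 in shCtrl plasma barcodes, with a UMI in 45 of 46 barcodes in shSrsf10 and 9 of 9 in shCtrl. In shCtrl 697 and 399 UMIs of Iglc3 came from 2 barcodes, both of Ighg2c class. In shSrsf10 the barcode with the most Iglc3 had 432 UMIs. How alike these lambda genes are in sequence was not examined, so the split between them is uncertain. Low lambda counts are not read as the light chain of a barcode.

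Variable segments of the heavy chain were sparse, with 113 UMIs beside 97650 heavy chain constant UMIs in shSrsf10 plasma barcodes and 15 beside 5209 in shCtrl plasma barcodes. That is 1.16 per 1000 in shSrsf10 and 2.88 in shCtrl. A leading heavy and a leading kappa segment could be named in 35 classified barcodes, 31 of shSrsf10 and 4 of shCtrl, and gave 31 different pairs. There were 4 pairs each seen in 2 barcodes, all of shSrsf10. Ighv1-82 with Igkv5-48 and Ighv5-12 with Igkv5-48 were each seen in 2 IgA barcodes, and in both cases 1 of the barcodes rested on a single UMI of the heavy segment. Ighv1-64 with Igkv6-25 was seen in an Ighg1 barcode, with 14 UMIs of the heavy and 10 of the kappa segment, and in an IgA barcode, with 2 UMIs of each. Ighv1-18 with Igkv6-23 was seen in an Ighg2b barcode, with 8 UMIs of the heavy and 9 of the kappa segment, and in an IgA barcode, with 1 and 6. As a named kappa segment is not read as the light chain of a barcode, the number of pairs is not read as a number of clones. In shCtrl the pairs rest on 4 barcodes. Segments named from 1 or a few UMIs are weak evidence of a clone. Pairs were named with kappa segments alone, so lambda chains are not part of them. The 2 shCtrl Ighg2c barcodes with 697 and 399 UMIs of Iglc3 were both led by Ighv1-82, with 3 and 2 UMIs. Ighv1-82 led 5 plasma barcodes over both libraries. With 1 barcode counted for each of the pairs shared within IgA, IgA was 65.1% of classified shSrsf10 plasma barcodes.

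B barcodes were almost all unswitched. Where a B barcode had at least 2 heavy chain UMIs, Ighm and Ighd together gave a share of at least 0.5 in 32 of 34 in shSrsf10, or 94.1% (80.3 to 99.3%), and in 55 of 56 in shCtrl, or 98.2% (90.4 to 100.0%). Ighm had a UMI in 35 of 58 B barcodes of shSrsf10 and 62 of 90 of shCtrl, and Ighd in 26 of 58 of shSrsf10 and 37 of 90 of shCtrl. Both were found in 20 B barcodes of shSrsf10 and 26 of shCtrl, the pattern of naive and mature B cells. No B barcode had more than 13 UMIs of Ighm in either library, against 2533 in the IgM plasma barcode. An exception was a shSrsf10 B barcode with 134 UMIs of Ighg2b among 620 in all, with 2 of Jchain and 1 each of Cd79a and Cd79b. In shCtrl the B barcode with the most switched UMIs had 4 of Ighg2c. Germinal centre genes were looked at as well, and none of the 8 on the list reached 20 UMIs over the plasma and B barcodes of shSrsf10.

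Outside T and keratin barcodes, the level of Ighm in B barcodes was 1091 CPM (895 to 1317) in shSrsf10 and 2127 (1810 to 2483) in shCtrl. Ighd was at 323 (221 to 456) in shSrsf10 and 638 (470 to 846) in shCtrl. Ratios were 0.513 for Ighm and 0.507 for Ighd. These B barcodes of shSrsf10 also held more RNA of macrophage markers, 3707 CPM over the 5 genes in shSrsf10 and 1090 in shCtrl, and what part this has in the difference was not tested. Of the 4 members with at least 20 UMIs there, Ighm, Ighd and Mzb1 were at least 1.5-fold lower and Ighg2b was higher, the last from the single barcode above. The interval of the log2 ratio for Mzb1, -1.78 to 0.13, includes 0. Over all B barcodes by the rule, T and keratin barcodes included, the ratios were 0.841 for Ighm and 0.864 for Ighd, and Mzb1 stood at 46.4 CPM in shSrsf10 and 57.9 in shCtrl, none of them past the fold. Over all genes measured in the B barcodes outside T and keratin barcodes 17% were lower and 34.3% higher by this fold.

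Over all kept barcodes, 8 of the 9 members with UMIs were at least 1.5-fold higher in shSrsf10 and 1 was lower. Of all 16115 genes with at least 20 UMIs, 14.3% were higher and 12.2% lower by this fold. Fewer plasma cells and less RNA in each cannot be told apart in such sums, so they are given beside the barcode counts above. Igha stood at 519 CPM in shSrsf10 (515 to 523) and 16.98 in shCtrl (16.3 to 17.7), a 30.6-fold difference. Jchain stood at 127 in shSrsf10 and 5.31 in shCtrl, a 23.9-fold difference, and Mzb1 at 10.2 in shSrsf10 and 1.48 in shCtrl, a 6.88-fold difference.

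The IgG genes were carried by few barcodes. Ighg2c stood at 74.7 CPM in shSrsf10 and 9.36 in shCtrl, a 7.99-fold difference. Ighg2b stood at 67.0 in shSrsf10 and 10.9 in shCtrl, a 6.12-fold difference. Ighg1 stood at 40.1 in shSrsf10 and 0.0630 in shCtrl, where it had 9 UMIs, and 51.3% of its 5468 shSrsf10 UMIs came from 1 barcode. Ighg3 stood at 11.6 in shSrsf10 and was at 0 in shCtrl, so it was at least 553-fold higher against a floor of 3 counts in that library, but 95.1% of its shSrsf10 UMIs came from 1 barcode. In shCtrl 1 IgA barcode gave 75.1% of Igha and 46.3% of Jchain, and another barcode, led by Ighg2b, gave 73.0% of Ighg2b. Folds of single genes thus rest on a handful of barcodes.

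Ighm and Ighd, the unswitched pair, behaved apart. Ighm stood at 25.0 CPM in shSrsf10 and 2.97 in shCtrl, an 8.44-fold difference, but the IgM plasma barcode held 74.2% of its shSrsf10 UMIs. Without the barcode with most UMIs of the gene in each library, the log2 ratio was 1.17, against 3.08 with it. Ighd was the member that was lower, at 0.323 in shSrsf10 (0.235 to 0.433) and 0.581 in shCtrl (0.463 to 0.721), a ratio of 0.555. No single barcode gave more than 9.09% of Ighd in shSrsf10 or 3.61% in shCtrl. With plasma barcodes left out, 7 members were higher and Mzb1 no longer was, with a log2 ratio of 0.10 against 2.78 over all barcodes.

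**Figure D3:**
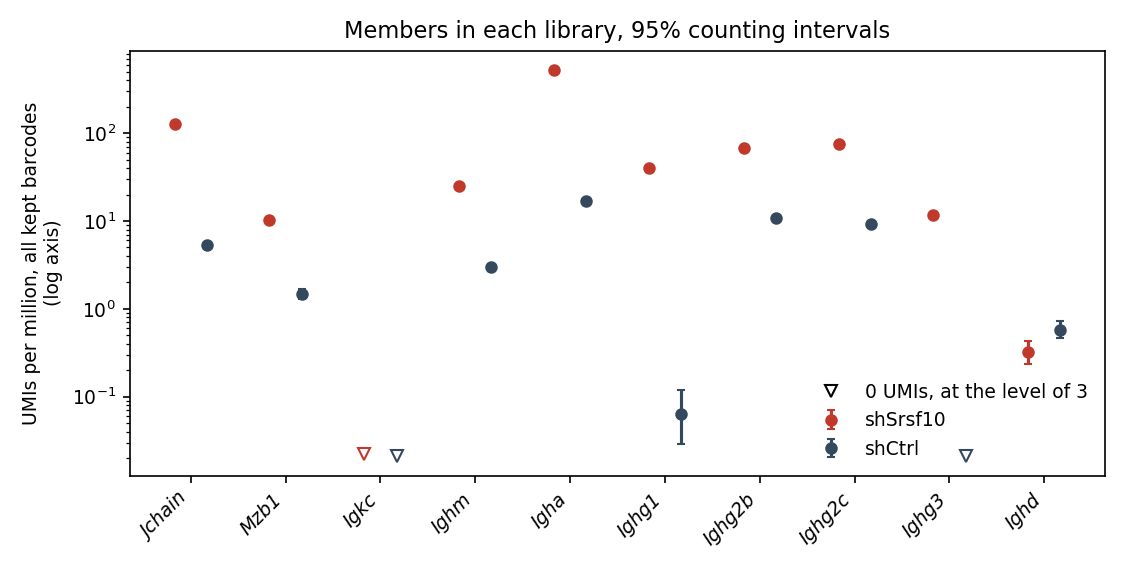
CPM over all kept barcodes (vertical, log axis) for the 10 members, with shSrsf10 left of shCtrl and bars for 95% counting intervals. Open triangles mark 0 UMIs, drawn at the level of 3 UMIs, for Igkc in both libraries and Ighg3 in shCtrl. Ighd alone among the measured members is lower in shSrsf10.

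Most of the switched heavy chain RNA lay in plasma barcodes, which held 98.1% of Igha UMIs in shSrsf10 and 97.6% in shCtrl, 98.5% of Jchain UMIs in shSrsf10 and 97.8% in shCtrl, and 96.8 to 98.0% of Ighg1, Ighg2b, Ighg2c and Ighg3 UMIs in shSrsf10. The remainder was looked for in T and tumour barcodes, which do not make antibody. Barcodes that also met the plasma or B rule were left out here, because those few decided the sum. With them Igha stood at 43.5 CPM in T barcodes and 36.2 in tumour barcodes of shSrsf10. Without them it stood at 9.90 (8.34 to 11.7) in 2098 T barcodes and 9.89 (9.33 to 10.5) in 3942 tumour barcodes of shSrsf10. In shCtrl it stood at 0 in 385 T barcodes, with an upper limit of 1.75, and 0.370 (0.274 to 0.487) in 6937 tumour barcodes.

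Within shSrsf10 the low level of Igha was thus nearly the same in T and tumour barcodes. It was 0.00610% of the plasma level in T barcodes and 0.00609% in tumour barcodes. It was also similar in barcodes that met none of the rules, at 0.00588%. The T and tumour classes overlap, as 93 barcodes of shSrsf10 and 22 of shCtrl met both rules. The 6 tumour epithelial markers summed to 5549 CPM in T barcodes and 12738 in tumour barcodes of shSrsf10. What part this has in the likeness was not tested. The make-up of the switched RNA was alike as well. Igha gave 72.3% of IgA and IgG heavy chain UMIs in T barcodes (65.5 to 78.5%), 72.2% in tumour barcodes (69.9 to 74.3%) and 73.0% in plasma barcodes. In shCtrl it gave 47.6% in tumour barcodes (37.8 to 57.6%) and 45.5% in plasma barcodes. The low switched counts in T and tumour barcodes thus had a composition close to that of their own library's plasma barcodes. They are taken as the background level for these genes, and their source was not tested. In tumour barcodes outside the plasma and B rules all 8 measured members were at least 1.5-fold higher in shSrsf10, beside 9.35% of genes. The interval of the log2 ratio for Mzb1 there, -0.24 to 2.38, includes 0. In T barcodes 1 of 4 measured members was, Igha, at least 6.94-fold higher against the floor of 3 counts, beside 10.9% of genes higher and 19.8% lower. In share of barcodes, 24.3% of tumour barcodes and 6.24% of T barcodes of shSrsf10 had an Igha UMI, at median depths of 26469.5 UMIs in tumour and 2677.5 in T barcodes. After thinning to 1000 UMIs the shares were 0.919% of tumour and 1.24% of T barcodes.

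**Figure D4:**
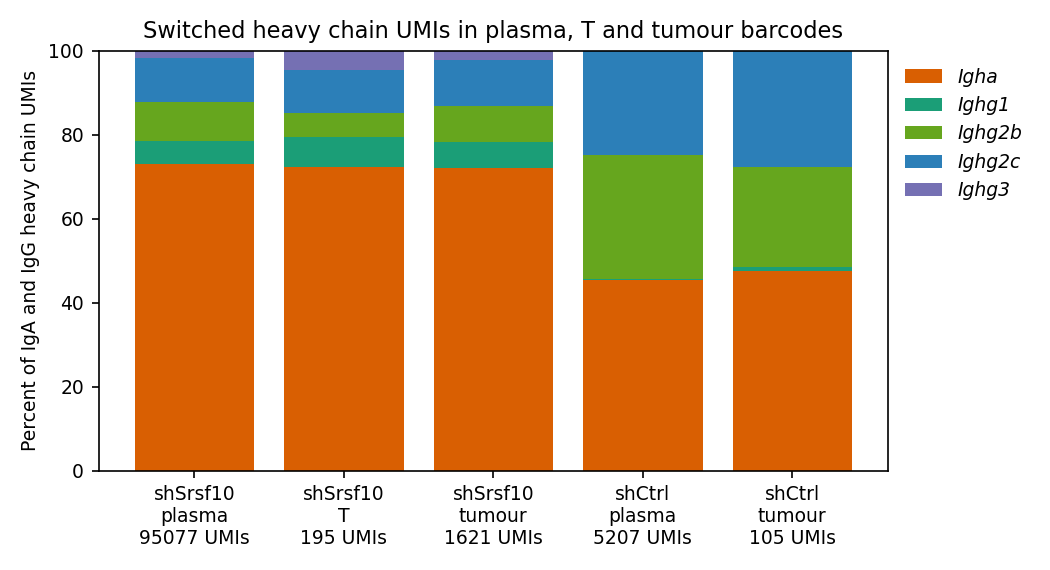
Percent of IgA and IgG heavy chain UMIs from each gene (vertical axis) in plasma, T and tumour barcodes of shSrsf10 and in plasma and tumour barcodes of shCtrl, with the number of UMIs under each bar. The 3 shSrsf10 bars have 72.2 to 73.0% Igha and the shCtrl bars 45.5% (plasma) and 47.6% (tumour). T barcodes of shCtrl had no such UMI.

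Ighm did not keep to this pattern. In T barcodes outside the plasma and B rules it stood at 34.0 CPM (31.0 to 37.2) in shSrsf10 and 38.5 (30.6 to 47.9) in shCtrl. In tumour barcodes it stood at 0.507 (0.387 to 0.653) in shSrsf10 and 0.207 (0.138 to 0.299) in shCtrl. Beside each Igha UMI there were 3.43 Ighm UMIs in T barcodes of shSrsf10 (2.84 to 4.17), 0.0513 in tumour barcodes and 0.0371 in plasma barcodes. The ratio in T barcodes was thus far above that of plasma barcodes, and the source of this Ighm was not tested. After thinning to 1000 UMIs, 119 of 2019 T barcodes of shSrsf10 had an Ighm UMI, or 5.89% (4.91 to 7.01%), and none of 3917 tumour barcodes did, which allows up to 0.0941%. In shCtrl it was 16 of 344 T barcodes, or 4.65% (2.68 to 7.44%), and 1 of 6903 tumour barcodes.

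Other B cell genes were scarce in the T barcodes. With every T barcode that had a UMI of Cd79a, Cd79b or Ms4a1 left out, Ighm stood at 33.3 CPM in shSrsf10 and 39.4 in shCtrl. Ighd had 2 UMIs in 2098 T barcodes of shSrsf10 and 1 in 385 of shCtrl, although in B barcodes it was present beside Ighm. Ms4a1 had 0 UMIs in T barcodes of both libraries.

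Ighm was unevenly spread over T barcodes. It was highest in those with a UMI of Foxp3, the transcription factor of regulatory T cells, at 297 CPM (210 to 408) in shSrsf10 and 132 (84.8 to 197) in shCtrl. There 13 of 20 barcodes in shSrsf10 and 10 of 19 in shCtrl had an Ighm UMI. In T barcodes with Cd8a or Cd8b1 and no Cd4 it stood at 36.3 (32.1 to 40.8) in shSrsf10 and 19.5 (10.9 to 32.2) in shCtrl. Within shSrsf10, T barcodes with a UMI of the proliferation gene Mki67 had 15.7 (12.7 to 19.2) and those without had 47.3 (42.7 to 52.3). In shCtrl the same sets had 41.5 (29.2 to 57.2) and 36.3 (26.4 to 48.7), whose intervals overlap. Depth differed between these sets in shSrsf10, with a median of 9883 UMIs with Mki67 and 2387 without. There 21.1% of barcodes with Mki67 and 15.9% of those without had an Ighm UMI, the other direction from CPM. After thinning to equal depth these shares were 1.85% (0.680 to 3.97%) with Mki67 and 6.67% (5.53 to 7.97%) without, the direction of the CPM. The subsets were chosen after their values were seen, and leaving out the Foxp3 barcodes changed Ighm in T barcodes to 31.7 in shSrsf10 and 29.7 in shCtrl.

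Other leukocytes carried Ighm as well. In barcodes with at least 2 UMIs of Siglech, a marker of plasmacytoid dendritic cells, Ighm stood at 713 CPM (533 to 935) in shSrsf10 and 634 (387 to 979) in shCtrl, and 15 of 16 in shSrsf10 and 8 of 11 in shCtrl had a UMI. In macrophage barcodes, with at least 5 UMIs of C1qa and C1qb, it stood at 21.3 (10.6 to 38.0) in shSrsf10 and 30.9 (21.3 to 43.4) in shCtrl. In neutrophil barcodes, with at least 20 UMIs of S100a8 and S100a9 and none of these, it stood at 45.8 (27.1 to 72.4) in shSrsf10, against 30.1 (11.0 to 65.5) for shCtrl. The order of levels was the same in both libraries at its ends, with Siglech barcodes highest and tumour barcodes lowest. The macrophage, neutrophil and whole T classes had overlapping intervals in shCtrl. Siglech barcodes had 0 UMIs of Igha in both libraries.

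**Figure D5:**
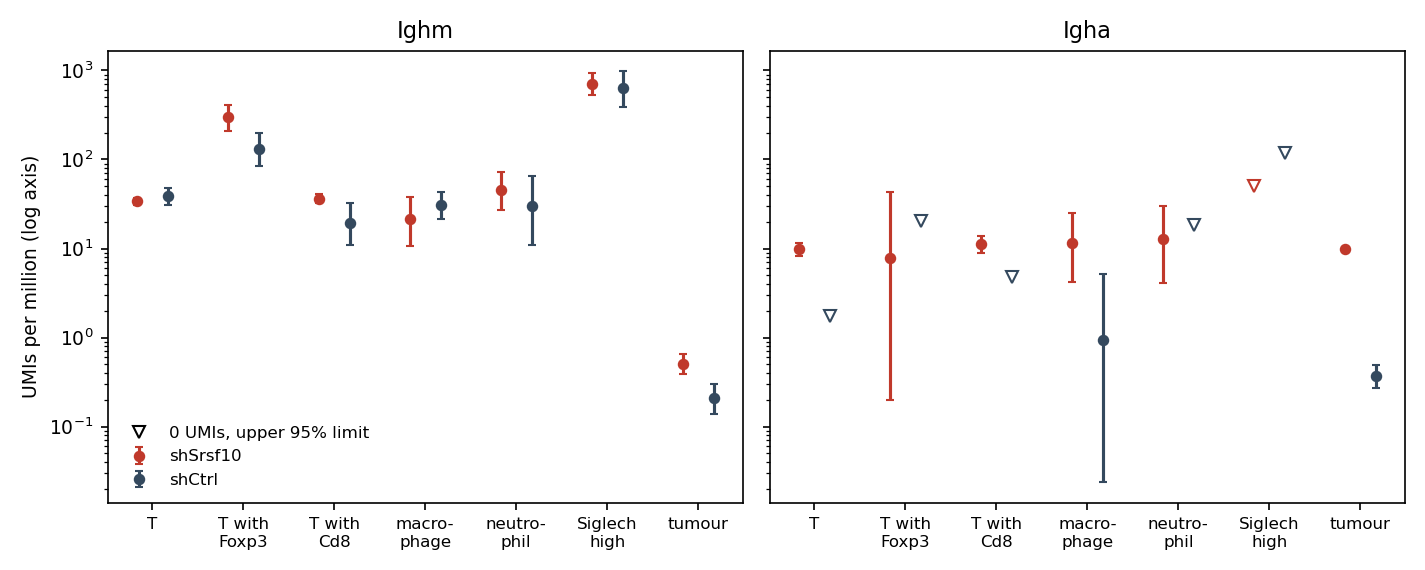
CPM (vertical, log axis) of Ighm on the left and Igha on the right in T, Foxp3, Cd8, macrophage, neutrophil, Siglech and tumour barcodes outside the plasma and B rules, with shSrsf10 left of shCtrl in each pair and bars for 95% counting intervals; open triangles give the upper limit where there were 0 UMIs. Ighm is at 713 in Siglech barcodes of shSrsf10 and 634 in those of shCtrl and under 1 in tumour barcodes, while Igha in shSrsf10 is near 10 in both T and tumour barcodes.

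The genes most like the members in pattern were ranked by their level in the 46 plasma barcodes of shSrsf10 over that in all its other kept barcodes, which is a description since the barcodes were chosen by 2 members. Of 1680 genes with enough UMIs, 17.9% were at least 2-fold higher. Tnfrsf17, the survival receptor BCMA of plasma cells, led with 106 UMIs in plasma barcodes and 1 elsewhere. Then came Oosp1, with 32 UMIs in plasma barcodes and 2 elsewhere, Gm30211, and Pou2af1, a B-lineage coactivator of immunoglobulin transcription, with 87 and 17. Vpreb3, Prg2, Eaf2, A430035B10Rik, Cd79b, Blnk, Cd79a, Derl3, Tubb2b, Mef2c and Fcrla completed the 15. In the 9 shCtrl plasma barcodes Tnfrsf17 had 10 UMIs in 3 barcodes, Eaf2 29 in 8, Pou2af1 12 in 6 and Derl3 11 in 6. Oosp1 and Prg2 had 0 UMIs in them, beside 32 and 25 in shSrsf10. The plasma barcodes held 57542 UMIs in all in shCtrl and 427285 in shSrsf10, so these zeros are not read as a difference. Several of the 15, such as Cd79a, Cd79b and Blnk, belong to the B cell receptor or its signalling and were kept by plasma barcodes.

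Plasma and B barcodes of shSrsf10 were compared over lists, in 40 plasma and 43 B barcodes outside T and keratin barcodes and relative to UMIs outside immunoglobulin genes. Of the 12 plasma identity genes 8 had at least 20 UMIs and all 8 were at least 2-fold higher in plasma barcodes, with a median log2 ratio of 4.14. Over all 1491 genes measured 24.8% were higher, 19.6% lower and the median was -0.05. Xbp1 stood at 3263 CPM in plasma barcodes and 101 in B barcodes (log2 ratio 5.01, 4.12 to 6.08). Tent5c, which stabilises immunoglobulin messages, stood at 611 in plasma barcodes and 20.3 in B barcodes. Eaf2, an elongation factor partner, was at least 46.2-fold higher and Tnfrsf17 at least 18.7-fold higher, both against 0 UMIs in B barcodes. Pou2af1 had the smallest difference, with a log2 ratio of 2.23.

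All 20 genes of the secretory machinery were measured and all were higher in plasma barcodes, with a median log2 ratio of 3.74. Fkbp11, a folding enzyme of the endoplasmic reticulum, stood at 890 CPM in plasma barcodes and 20.3 in B barcodes (log2 ratio 5.46, 3.58 to 8.51). Edem2 and Txndc5, of glycoprotein quality control and disulphide exchange, had log2 ratios of 4.78 and 4.77. The chaperones Hspa5 and Calr had the smallest, at 1.64 and 1.36. Among the 18 B identity genes, 9 were measured. One of them, Ms4a1, is part of the rule for B barcodes, and the other 8 were all at least 2-fold lower in plasma barcodes. H2-Aa, a class II antigen presentation gene, stood at 214 in plasma barcodes and 4967 in B barcodes, the transcription factor Ebf1 at 47.5 in plasma barcodes and 993 in B barcodes, and Cd74, the class II invariant chain, at 4901 in plasma barcodes and 12317 in B barcodes. Macrophages also express class II genes. Relative to all UMIs, immunoglobulin genes included, the macrophage markers stood at 34.9 CPM in plasma barcodes and 3707 in B barcodes. The part of macrophage RNA in the class II difference was not tested.

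Few homing receptors were measured. Ccr10, a chemokine receptor known from IgA plasma cells, had 38 UMIs in plasma barcodes and 0 in B barcodes. Itgb7, the beta chain of the gut homing integrin, had a log2 ratio of 1.36 (0.22 to 2.68). Of the 8 cycling genes 2 were measured, of which Stmn1 was lower in plasma barcodes, and Pcna, with 14 UMIs in plasma and 13 in B barcodes, was between the limits.

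Between the libraries, plasma barcodes outside T and keratin barcodes numbered 40 in shSrsf10 and 7 in shCtrl. Of 8 plasma identity genes measured, 4 were at least 2-fold higher in shSrsf10 and none lower, where 14.4% of 1102 genes were higher and 9.26% lower. These were Xbp1, Slamf7, Tent5c and Cd28. Xbp1 stood at 3263 CPM in shSrsf10 and 1339 in shCtrl (log2 ratio 1.28, 0.78 to 1.84). Slamf7, Tent5c and Cd28 rested on 4, 5 and 2 UMIs in shCtrl, and the interval of the log2 ratio for Cd28, -0.32 to 4.71, includes 0. Of the 20 secretory genes 2 were higher and none lower. Txndc5 stood at 3044 in shSrsf10 and 649 in shCtrl (log2 ratio 2.23, 1.52 to 3.05), and Edem2 at 1394 in shSrsf10 and 568 in shCtrl (log2 ratio 1.30, 0.52 to 2.19). The other 18, such as Hsp90b1 at 3002 in shSrsf10 and 2759 in shCtrl, stayed within 2-fold. Ccr10 had 38 UMIs in shSrsf10 and 1 in shCtrl (log2 ratio 2.47, -0.09 to 7.81). The shCtrl side rests on 7 barcodes.

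IgA and IgG plasma barcodes of shSrsf10 were set against each other in the same way, with 27 IgA and 11 IgG barcodes. The 11 include the barcode that met the plasma rule through Mzb1 alone, with 31 UMIs of the B cell genes. What part it has in the differences was not tested. Of 928 genes measured, 7.65% were at least 2-fold higher in IgA and 7.76% lower. Ccr10 stood at 326 CPM in IgA barcodes and 56.2 in IgG barcodes (log2 ratio 2.53, 0.87 to 4.88), with a UMI in 14 of 27 IgA and 3 of 11 IgG barcodes. Txndc5 stood at 3899 in IgA barcodes and 1443 in IgG barcodes (log2 ratio 1.43, 1.08 to 1.80), and Tnfrsf17 at 698 in IgA barcodes and 262 in IgG barcodes. Xbp1, at 3378 in IgA barcodes and 2999 in IgG barcodes, stayed within 2-fold. Thus 1 of 8 plasma identity genes, 3 of 20 secretory genes and 1 of 3 homing receptors were higher in IgA barcodes and none of them lower.

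Among genes lower in IgA barcodes, some rested on 1 IgG barcode. Slpi, a protease inhibitor, had 1 UMI in IgA barcodes and 73 in IgG barcodes, where it was found in 5 of 11. H2-Aa had 8 UMIs in IgA and 28 in IgG barcodes, and 1 barcode gave 85.7% of its IgG count. For Blnk, a B cell receptor adaptor, 15 of 27 IgA barcodes and 11 of 11 IgG barcodes had a UMI, at 158 CPM in IgA barcodes and 506 in IgG barcodes (log2 ratio -1.68, -2.64 to -0.75). Fcer1g, a signalling chain of Fc receptors, stood at 382 in IgA barcodes and 56.2 in IgG barcodes and was found in 11 of 27 IgA barcodes.

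Genes that feed or help plasma cells were compared over all kept barcodes. Of the 9 measured of 10, 6 were at least 1.5-fold higher in shSrsf10 and 1 was lower, with 14.3% of all genes higher and 12.2% lower. Il21, a T cell cytokine that drives plasma cell formation, was 7.19-fold higher, with 103 UMIs in shSrsf10 against 15 in shCtrl. The receptors Tnfrsf13b (TACI) and Tnfrsf13c (BAFF receptor) were 3.11-fold and 3.46-fold higher, from 107 and 33 UMIs in shSrsf10 and 36 and 10 in shCtrl. Il6, a survival cytokine, had 78 UMIs in shSrsf10 and 26 in shCtrl. Tnfsf13, which encodes the ligand APRIL, stood at 9.70 CPM in shSrsf10 and 6.46 in shCtrl, and Tnfsf13b, which encodes BAFF, had 32 UMIs in shSrsf10 and 24 in shCtrl. Tgfb1, a cytokine that directs switching to IgA, was lower, at 17.5 CPM in shSrsf10 and 45.8 in shCtrl. T barcodes, a source of Il21, made up 28.1% of shSrsf10 and 4.03% of shCtrl, and the part of this in the values was not tested.

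Receptors of antibody differed in direction. Of 7 on the list, Fcgr3 and Fcgr4, which bind IgG on phagocytes, were 1.90-fold and 1.72-fold higher in shSrsf10, and Pigr was lower. Pigr, which carries IgA dimers across epithelium, had 4 UMIs in shSrsf10 and 18 in shCtrl among all kept barcodes, so it was close to undetected in both. Fcgrt, the receptor that recycles IgG, stood at 50.3 CPM in shSrsf10 and 55.4 in shCtrl. Of the 8 genes of germinal centre and switching, 5 were measured over all kept barcodes and Fas was the only 1 past the fold, 2.08-fold higher in shSrsf10.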

How the data were processed

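The files hold UMI counts per gene and barcode, whole numbers, as the authors deposited them. Cell Ranger 6.1.0 and mm10 are named in the submitters' processing notes. Per the labels, the kit was a 5' kit in the series text and a 3' V3 kit in the sample text, and which was used is not settled. Barcodes with at least 200 genes, 500 UMIs and at most 20% mitochondrial UMIs were kept. Doublets were not removed in the main values. They were scored with Scrublet (scanpy 1.11.5), whose automatic threshold marked 206 barcodes in shSrsf10 and 0 in shCtrl, so the highest scores at 0.8% per 1000 barcodes were removed as an alternative (456 in shSrsf10, 787 in shCtrl).

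UMIs were summed per library and class and given as CPM, per 1000000 UMIs of the class. Sums have exact Poisson intervals, ratios exact conditional binomial intervals and shares exact Clopper-Pearson intervals (scipy 1.17.1), all at 95%. Genes needed 20 UMIs over both sides, and a gene at 0 was set at a floor of 3 counts. Intervals and thinning were tested on simulated data. Names and positions come from GENCODE vM21, and all 10 member identifiers matched. The text names the members, the 15 genes most like them and up to 4 genes from each end of a list, with a few chosen after their values were seen, such as Fcer1g, Slpi and Blnk. Members and lists were chosen with earlier results of these data known.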

Additional observations from a re-analysis of the deposited data

How the results depend on the processing

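No paired analysis was possible because each group is 1 library and no test was made. The ratio of plasma shares stayed between 5.81 and 7.28 under the other settings and was 54.9 after removal of the highest Scrublet scores, where 1 shCtrl barcode was left; the cause was not tested. The ratio for B barcodes was 1.27 with at least 4 UMIs (37 in each library) and 3.15 after thinning to 1000 UMIs, which leaves out shallow barcodes. The count of higher members was 8 in all settings but 1, where it was 7 (without plasma barcodes). The IgA share was 65.1 to 70.0% in shSrsf10 and 22.2 to 28.6% in shCtrl. It was not computed after removal of the highest Scrublet scores. Unswitched B barcodes in shCtrl were 100.0% with at least 5 heavy chain UMIs and 0.8 from 1 side. Settings on keratin, shared barcode sequences, segment pairs, Foxp3 and B marker UMIs were chosen after seeing the data.

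Igha in T barcodes of shSrsf10, 43.5 CPM by the rule as written, was 9.90 without plasma and B barcodes, 88.3 after thinning and 9.82 without barcodes with B marker UMIs. In tumour barcodes of shSrsf10 Igha, 36.2 as written, was 9.89 without plasma and B barcodes and 24.7 after thinning, and Ighm, 0.649 as written, was 0.507 and 0.255. Ighm in T barcodes after thinning was 64.1 in shSrsf10 and 49.4 in shCtrl, and 29.7 in shCtrl without Foxp3 barcodes. In tumour barcodes of shCtrl Igha was 0 after thinning, against 0.368 as written, and Ighm was 0.207 without plasma and B barcodes and 0.145 after thinning, against 0.302 as written. With 9 shCtrl plasma barcodes, class shares there are known only within wide intervals.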
